A study of Mus musculus with 12 samples.

Results

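A set of 9 well-known long non-coding RNA (lncRNA) genes were followed through aging of the mouse testis: Malat1, Neat1, Tug1 and Miat, whose transcripts are known from the nucleus, and Gas5, Snhg1, Snhg3, Snhg11 and Snhg12, which are host genes of small nucleolar RNAs (snoRNAs). A transcript was taken as a member when the deposited table gave it 1 of these 9 symbols and when the assembly comparison placed it on the strand of the gene, either as the annotated transcript, inside it, as a splice variant or as another exon overlap. The rule gave 23 transcripts of 71967 and, summed by symbol, 9 genes of 31954 genes and loci. It left out 1 transcript with a member symbol, which lies on the opposite strand of Miat. The libraries came from whole testes of wild-type (WT) C57BL/6 male mice aged 3, 6, 12 and 18 months (3M, 6M, 12M and 18M), with 3 mice at each age and no treatment. Each library is written here as its age and mouse number, such as 3M-1. Total RNA was depleted of ribosomal RNA, so RNAs without a poly(A) tail were kept, and the libraries did not mark the strand of a read. The methods of the study leave unclear whether the mice of an age were littermates.

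Malat1 is a nuclear RNA that collects in nuclear speckles, the bodies that hold splicing factors. Neat1 is transcribed from the neighbouring locus and is the RNA scaffold of the paraspeckle. Its short form ends at a poly(A) site and its long form, which runs past that site, is the form needed to build a paraspeckle. The 3′ ends of Malat1 and long Neat1 are cut by RNase P, which frees a tRNA-like small RNA and leaves an end capped by a triple helix of U-rich and A-rich stretches. Tug1 is a widely expressed lncRNA whose loss in mice is known to make males sterile, and Miat is a nuclear RNA best known from neurons. The spliced RNA of a snoRNA host gene often has no known product of its own, since the snoRNAs are cut from its introns. Many snoRNAs guide chemical marks onto ribosomal RNA.

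The total of estimated reads per library ranged from 50924104 to 71803379. Markers of Sertoli cells, Leydig cells, spermatocytes and spermatids were detected in every library, as labelled, and of 5 epididymis markers Lcn5 and Adam7 were at 0 while the other 3 summed to 0.142 to 0.567 FPKM (fragments scaled to transcript length and library total). The summed level of 8 Leydig markers was 1018 to 1176 FPKM in the 3M mice, 940 to 1717 FPKM in the 6M mice, 771 to 826 FPKM in the 12M mice and 704 to 975 FPKM in the 18M mice. The levels of 3 libraries stood apart for Malat1, 5 for Snhg3 and 2 for the forms of Neat1, and 6M-2 was in each of these sets. Each set is described with the gene it touches.

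The sequences at the splice ends are shown first because assembled transcripts at Malat1 and Neat1 turned on them. The 3′ end of Malat1 lies on the minus strand at chr19:5795982-5796081 (GRCm38, which is mm10) and is followed at once by the small RNA mascRNA at chr19:5795924-5795981. An assembled transcript that carries the symbol Dpf2 shares 6911 bases with Malat1 and skips the 40 bases in capitals. The skipped stretch begins with GT and ends with AG, as most introns do, and takes in the first of the U-rich stretches of the triple helix.
Malat1 3′ end: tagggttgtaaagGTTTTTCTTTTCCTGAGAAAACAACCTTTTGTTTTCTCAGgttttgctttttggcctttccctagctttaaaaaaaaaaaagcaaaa
mascRNA: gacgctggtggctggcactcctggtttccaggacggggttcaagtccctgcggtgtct

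Both spliced transcripts assembled over the short form of Neat1 lacked the same 143 bases, at chr19:5844435-5844577 on the minus strand. These bases, in capitals between 20 flanking bases on each side, also begin with GT and end with AG.
Neat1 skipped stretch: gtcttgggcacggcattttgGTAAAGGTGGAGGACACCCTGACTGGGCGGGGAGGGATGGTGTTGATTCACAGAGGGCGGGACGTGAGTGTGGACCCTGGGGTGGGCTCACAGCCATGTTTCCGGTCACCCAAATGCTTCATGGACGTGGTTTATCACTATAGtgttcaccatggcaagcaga

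**Figure D1:**
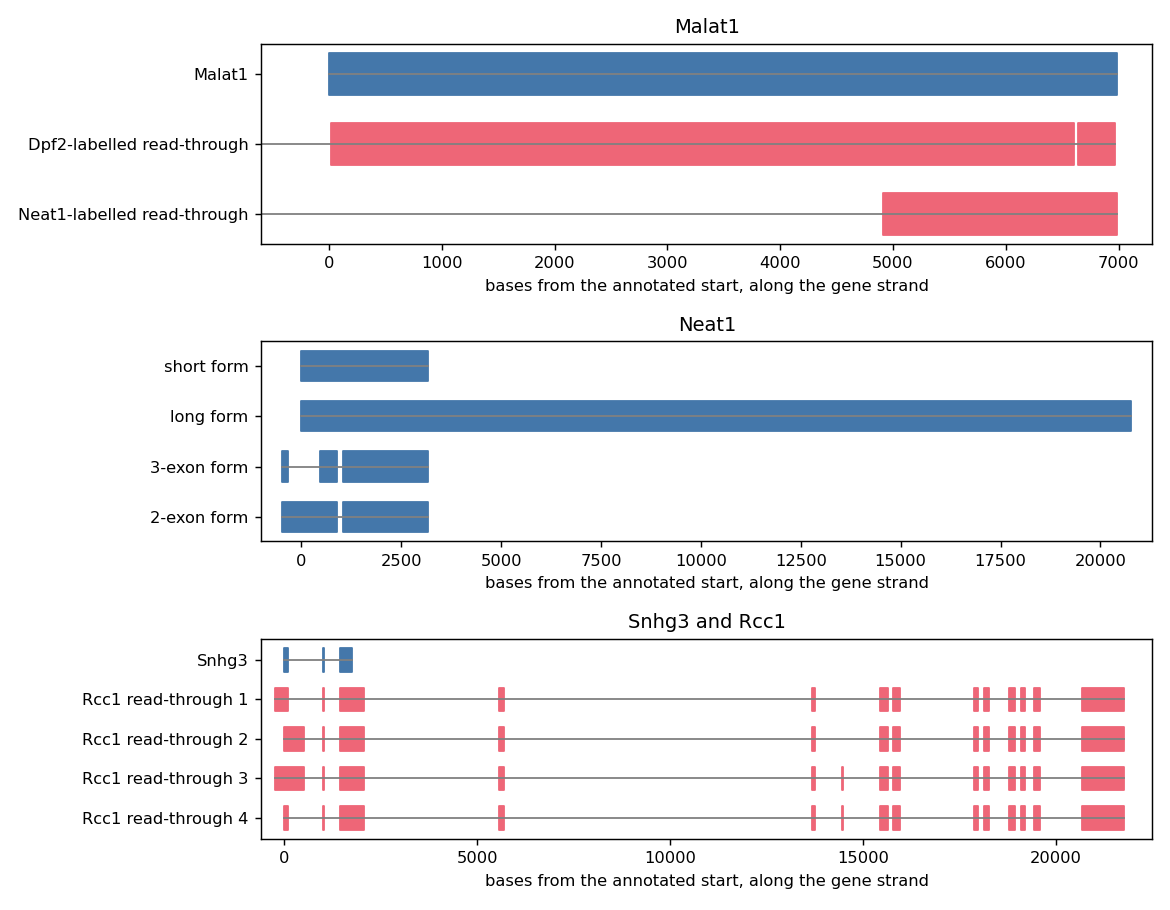
Exons of the transcripts at Malat1, Neat1 and Snhg3, drawn to scale along the strand of each gene in bases from its annotated start; boxes are exons, lines are introns, and red marks transcripts that also reach another gene. The red transcripts at Snhg3 hold all 437 of its exon bases and go on into Rcc1.

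The 9 genes spanned a wide range of levels. Ordered by the median of summed FPKM over the 12 libraries, Neat1 came first with 32.3, followed by Tug1 with 18.1, Gas5 with 16.4, Snhg3 with 14.2, Snhg1 with 5.76, Snhg11 with 3.14, Snhg12 with 3.09, Malat1 with 2.51 and Miat with 0.159. By the mean, Malat1 came between Snhg3 and Snhg1 with 11.1 FPKM, since 3 of its libraries were high, and the order of the others was the same. FPKM is scaled by transcript length, so it allows levels of different genes to be compared. Within this order Snhg1 exceeded Snhg11 in 12 of 12 libraries and Malat1 exceeded Miat in 12 of 12, with ranges that did not overlap. Neighbours elsewhere in the order overlapped in range. Neat1 was above Tug1 in 10 of 12 libraries, Tug1 above Gas5 in 9 of 12, Snhg3 above Snhg1 in 7 of 12, Snhg11 above Snhg12 in 7 of 12 and Snhg12 above Malat1 in 7 of 12. Gas5 and Snhg3 took turns, with Gas5 higher in 6 of 12 libraries.

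**Figure D2:**
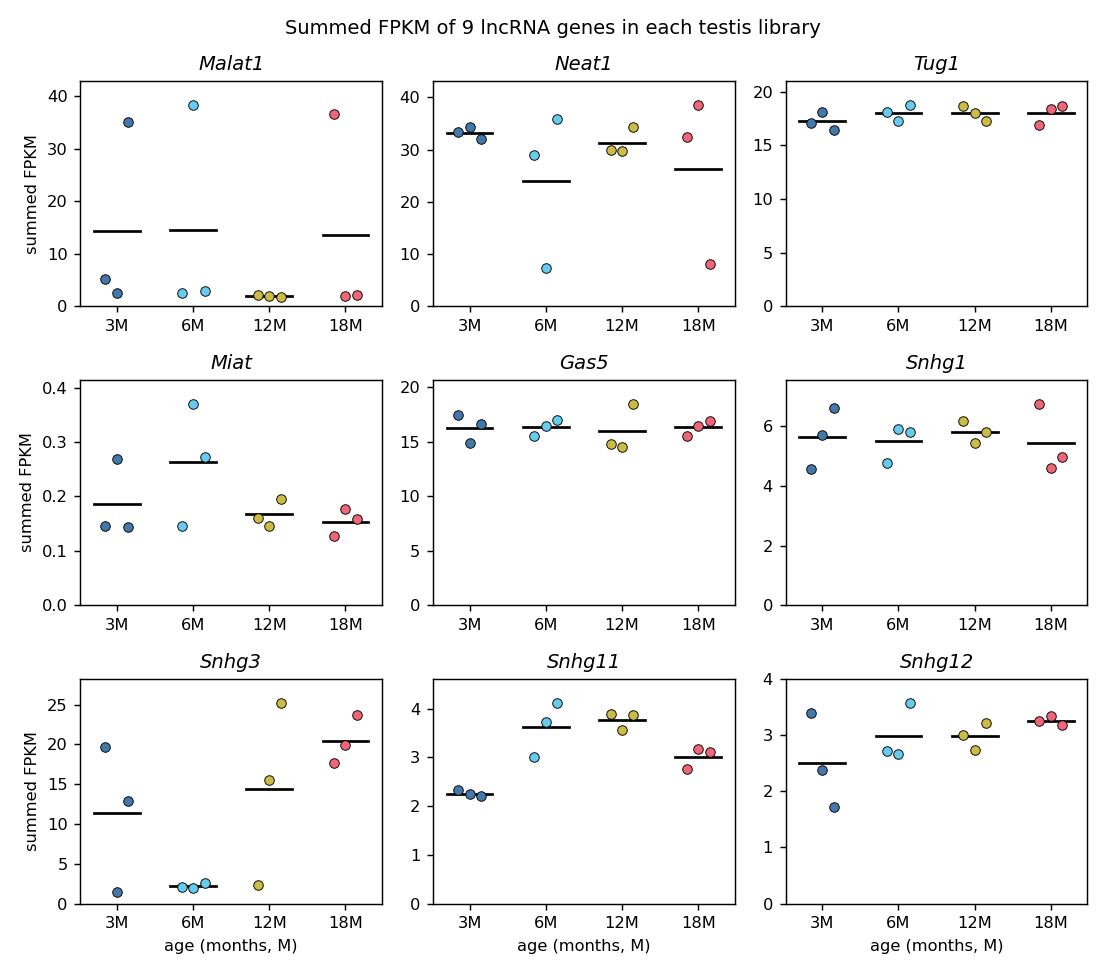
Summed FPKM of each gene (vertical axes, from 0) by age (horizontal axes); points are libraries, 3 per age, and lines are means. Malat1 sits above 35 FPKM in 3 libraries of different ages and at 5.11 or lower in the other 9, whereas Tug1 and Gas5 stay in narrow bands.

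None of the 9 genes passed the test for a change with age. Between 3M and 18M, edgeR's quasi-likelihood test with Benjamini-Hochberg adjustment called 0 of 9 members at an adjusted p of 0.05 or less, against 0.0641% of the 24965 genes and loci tested. It called 0 of 9 members for a log2 slope on age in months (0.17% of all tested), 0 of 9 between 3M and 6M (0.0682%), 0 of 9 between 6M and 12M (0.0401%) and 0 of 9 between 12M and 18M (0.016%). At an unadjusted p of 0.05 or less, Snhg11 passed between 3M and 18M, where 12.0% of all genes did. Snhg3 and Snhg11 passed between 3M and 6M (3.9% of all genes), Malat1 and Snhg3 between 6M and 12M (7.48%), Snhg11 between 12M and 18M (3.52%), and no member for the slope (15.2%). Comparisons that follow each other share the libraries of an age. With DESeq2 the member calls were 1 of 9, which was Snhg11, between 3M and 18M (1.24% of all genes with an adjusted p called) and 1 of 9, again Snhg11, between 3M and 6M (0.354%). It gave Malat1 no p-value in the other comparisons and called 0 of the remaining 8 for the slope (2.47%), between 6M and 12M (0.551%) and between 12M and 18M (0.225%). These are whole testes, so fewer cells of a type and less RNA per cell cannot be told apart.

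**Figure D3:**
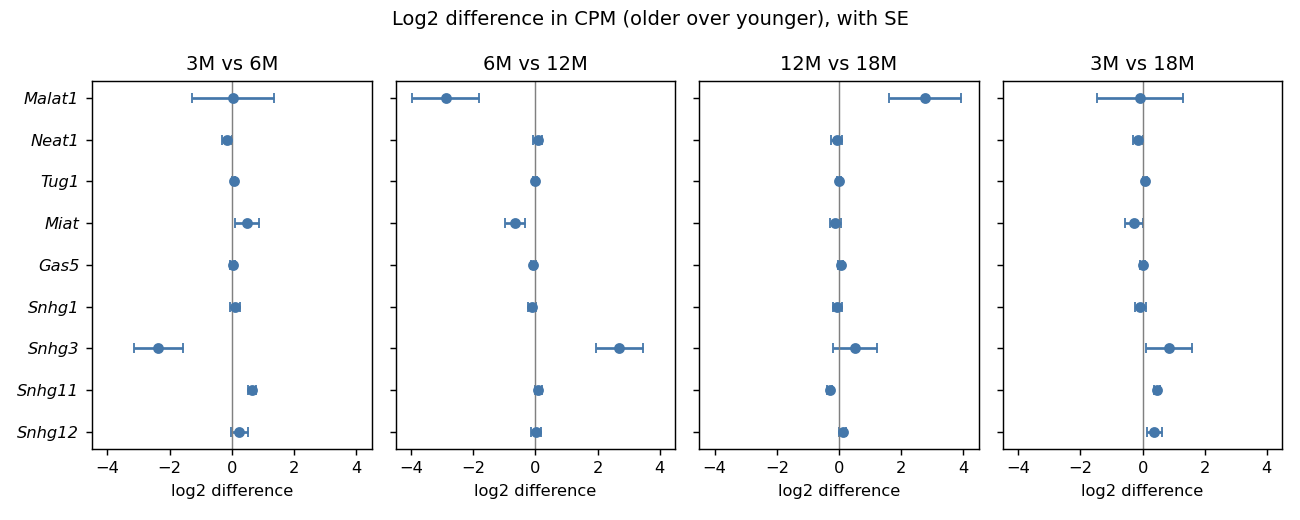
Log2 difference in CPM (counts per 1000000, older age over younger) of each gene in 4 comparisons, with the standard error from edgeR as bars. The intervals of Tug1 and Gas5 are the narrowest, and those of Malat1 and Snhg3 are the widest.

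Malat1 was the most variable of the nuclear RNAs. It has a single annotated transcript of 6983 bases, NR_002847, with 1 exon at chr19:5795690-5802672 on the minus strand. Its estimated reads were 2000, 1067 and 15133 in the 3M mice, 953, 14429 and 1251 at 6M, 978, 763 and 840 at 12M, and 15413, 736 and 1173 at 18M. A single library each at 3M, 6M and 18M was therefore high, and none was at 12M. On the CPM scale, scaled by trimmed mean of M-values (TMM), the 3 high libraries had 263 to 286 CPM and the other 9 had 13.3 to 38.1 CPM. All 12M libraries lay below those of 3M and 6M on this scale, and the other ages overlapped. The coefficient of variation over the 12 libraries was 139%, and 99.5% of the 20488 genes with a mean of 1 CPM or more had a lower one. The log2 difference from 3M to 18M was -0.08 (SE 1.39). It was -2.89 (SE 1.07) from 6M to 12M, with an adjusted p of 0.668 by edgeR, and 2.78 (SE 1.16) from 12M to 18M, with an adjusted p of 0.9998. Without the 3 high libraries it was -0.91 (SE 0.35) from 3M to 18M, -0.47 (SE 0.13) from 6M to 12M and 0.05 (SE 0.13) from 12M to 18M, and none of these was called by edgeR, at adjusted p of 0.395, 0.872 and 0.9986.

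No other listed transcript took up the difference in Malat1. The Dpf2-labelled transcript, whose gap is shown above, had 3146 estimated reads in 3M-1 and 564 in 3M-3, and 4 to 11 in the other libraries. A transcript labelled Neat1 has 2071 of its 2082 bases within Malat1 and had 548 reads in 18M-2 and 0 or 1 elsewhere. The mascRNA entry, 58 bases long, was given 1 read in every library. The depth over the exon bases of Malat1 from all transcripts of the strand still ranged 21.0-fold, from 0.195 to 4.10 per 1000000 reads. On this count 3M-1 had 1.41, against 0.195 to 0.352 in the other libraries without high Malat1. The fits without the 3 high libraries kept 3M-1. The cause was not tested.

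Neat1 had a steadier total and a variable split between its forms. Its summed reads were 6366, 7030 and 6727 in the 3M mice, 5465, 4271 and 7650 at 6M, 6470, 5909 and 7760 at 12M, and 6627, 6817 and 5680 at 18M, with overlap between all ages. The log2 difference from 3M to 18M was -0.15 (SE 0.17, adjusted p = 0.747 by edgeR). The 6817 reads in 18M-2 include 548 of the transcript labelled Neat1 that lies mostly within Malat1. With that transcript counted as Malat1 the difference was -0.20 (SE 0.15, adjusted p = 0.616 by edgeR). The short form, NR_003513, of 3185 bases at chr19:5842296-5845480, held 83.7% of the FPKM of the gene on average. It had 4345 to 6487 reads in 10 libraries, but 233 in 6M-2 and 362 in 18M-3. In these 2 libraries the long form, NR_131212, of 20769 bases at chr19:5824710-5845478, had 3592 and 4419 reads, against 318 to 977 in the other 10.

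The whole of the short form lies inside the long form apart from its first bases, so reads in the shared part can be given to either. Because FPKM divides by length, the assignment to the long form lowered the summed FPKM of Neat1 to 7.29 in 6M-2 and 8.13 in 18M-3, against 28.9 to 38.5 in the other libraries. The depth scaled to library total over the exon bases of Neat1 ranged only 1.74-fold. The short form made up 88.2%, 90.7% and 91.9% of the FPKM of the gene at 3M and 84.6%, 75.2% and 18.2% at 18M, which do not overlap. The difference was 31.0 percentage points lower at 18M (59.3% ± 35.9, SD, n = 3) than at 3M (90.3% ± 1.92), with an exact permutation p of 0.1, two-sided, the smallest that 3 against 3 can give. Without 18M-3 it was 10.4 percentage points lower (79.9% ± 6.66, SD, n = 2). In 18M-2 the value of 75.2% and the summed 38.5 FPKM count the transcript within Malat1, at 4.66 FPKM, as Neat1. For the long form the shares were 1.27% ± 0.0935 at 3M and 12.0% ± 19.1 at 18M (SD, n = 3), with an exact permutation p of 0.8. Without 18M-3 the direction turned, with 1.03% ± 0.455 at 18M (SD, n = 2).

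**Figure D4:**
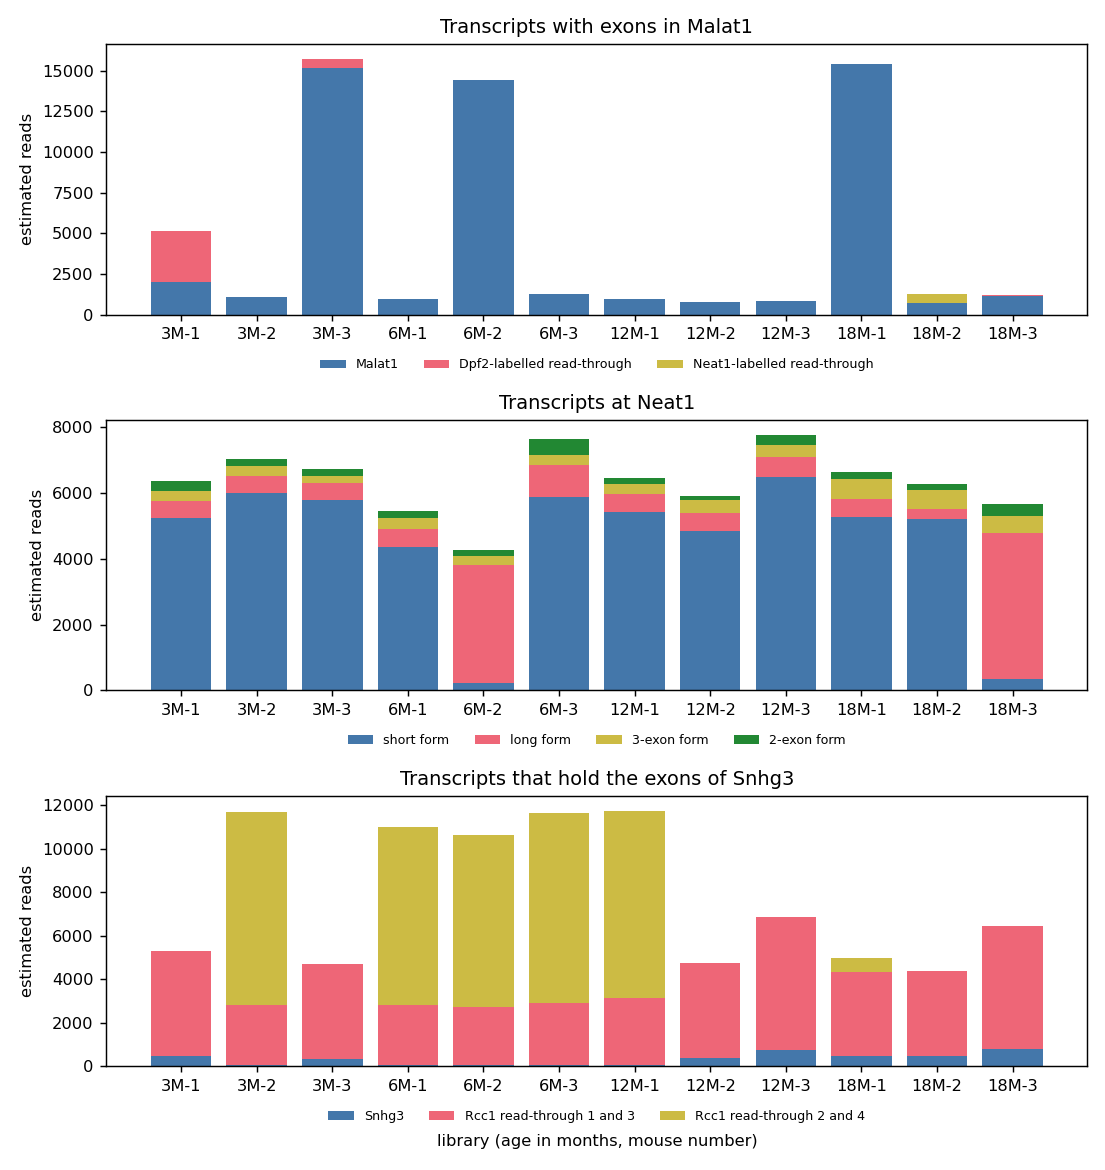
Estimated reads per library (vertical axes) of transcripts that share exons at Malat1, Neat1 and Snhg3, stacked by transcript. Most Neat1 reads go to the long form in 6M-2 and 18M-3 alone, and the yellow Rcc1 transcripts at Snhg3 are tall in the 5 libraries where Snhg3 is low.

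A spliced form of Neat1 had its highest estimated levels in the oldest mice. This assembled transcript, MSTRG.10236.3, has 3 exons at chr19:5842296-5845949 and 2719 bases, starts upstream of the annotated start, and lacks the 143 bases printed above. Its reads were 300, 283 and 209 at 3M, 325, 261 and 289 at 6M, 305, 379 and 386 at 12M, and 589, 577 and 522 at 18M. All 18M libraries were thus above all of the younger ones. Its CPM averaged 4.78 ± 1.05 in the 3M mice, 5.53 ± 0.728 in the 6M mice, 6.12 ± 0.960 in the 12M mice and 9.53 ± 1.91 in the 18M mice (SD, n = 3). The log2 difference from 3M to 18M was 0.99 (SE 0.26), with an unadjusted p of 0.0115 and an adjusted p of 0.819 by edgeR, and the slope was 0.06 per month (SE 0.01), with an unadjusted p of 6.8e-04 and an adjusted p of 0.412. It was therefore not called by edgeR, whereas DESeq2 called it in both, at adjusted p of 0.0123 and 0.00189.

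The transcript-level test as a whole gave few calls. The filter on low counts kept 20 of the 23 member transcripts between 3M and 18M and 21 for the slope, whereas all 9 genes passed it in every comparison. By edgeR, 0 of the 20 member transcripts tested were called between 3M and 18M (0.108% of 54472 transcripts called), and 0 of 21 for the slope (0.00881% of 56784). At an unadjusted p of 0.05 or less 2 of 20 and 2 of 21 passed, against 5.4% and 6.99% of all transcripts. DESeq2 called 1 of 20 in both, which was the 3-exon Neat1 form, against 3.24% and 1.5% of all transcripts with an adjusted p, and gave the Malat1 transcript no p-value for the slope. The 2-exon form of Neat1, which keeps the bases between the first exons of the 3-exon form, had 135 to 509 reads and a log2 difference of -0.11 from 3M to 18M.

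**Figure D5:**
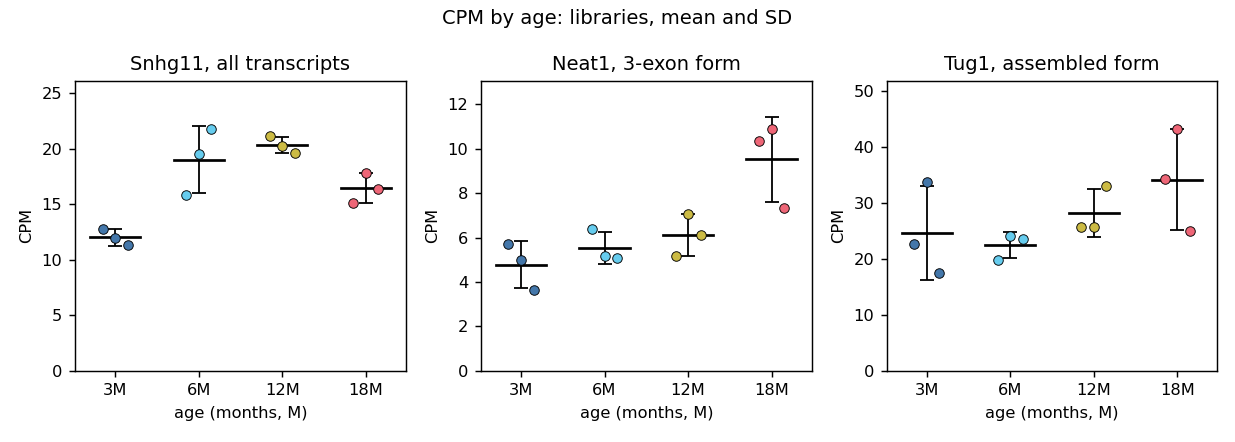
CPM (vertical axes, from 0) of Snhg11, of the 3-exon Neat1 form and of the assembled Tug1 form by age; points are libraries, lines are means and bars are SD over 3 mice. Snhg11 is lowest at 3M, and the estimate for the 3-exon Neat1 form, which shares exon bases with other forms, is highest at 18M.

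Tug1 was among the steadiest genes. Its summed reads were 5219, 5871 and 5491 at 3M, 5382, 5067 and 6036 at 6M, 6412, 5630 and 6209 at 12M, and 5495, 5708 and 7731 at 18M. Its FPKM averaged 17.2 ± 0.861 in the 3M mice and 18.0 ± 0.969 in the 18M mice (SD, n = 3), and the ages overlapped. Its coefficient of variation in CPM was 4.47%, and 6.81% of the 20488 genes had a lower one, with a median of 10.8% over all of them. From 3M to 18M the log2 difference was 0.07 (SE 0.06). Its 4 transcripts shared the level almost evenly, from 19.8% for the 4-exon NR_002321 to 28.4% for the assembled MSTRG.2427.1 at chr11:3639785-3649494. The assembled form had 1186, 1915 and 999 reads at 3M and 1952, 2289 and 1776 at 18M, so the groups overlapped. Its slope was 0.04 log2 per month (SE 0.02, unadjusted p = 0.0361, adjusted p = 0.681 by edgeR). In 18M-2 the form NR_002321 had 6 reads, against 558 to 1703 in the other libraries. Tug1 overlaps Morc2a on the other strand, and reads in bases shared by both cannot be told apart in libraries without strand.

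Miat was barely detected. Its reads were 72, 144 and 78 at 3M, 70, 176 and 144 at 6M, 90, 74 and 114 at 12M, and 67, 88 and 107 at 18M, over a transcript of 8760 bases at chr5:112213228-112228948. Its highest value was 0.370 FPKM in 6M-2, and all ages overlapped. The log2 difference from 3M to 18M was -0.28 (SE 0.29, adjusted p = 0.730 by edgeR). The transcript on the opposite strand that the rule left out has 3 exons, and all 564 of its bases lie within an exon of Miat. It had 97 to 205 reads, which is 3.92 ± 0.611 FPKM at 3M and 4.31 ± 0.610 at 18M (SD, n = 3). Its level per length was thus above that of Miat in every library, although the bases are the same and the strand was given by splicing alone.

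Gas5 had the highest median level of the snoRNA hosts and the lowest coefficient of variation in CPM among them, 6.05%. Gas5 is a growth-arrest transcript whose exons carry little coding sequence, and it is degraded when translated. Its reads were 1364, 1259 and 1520 at 3M, 1278, 1337 and 1382 at 6M, 1349, 1236 and 1681 at 12M, and 1431, 1331 and 1755 at 18M. The ages overlapped in FPKM, with 16.3 ± 1.32 at 3M and 16.3 ± 0.704 at 18M (SD, n = 3). Between 3M and 18M it differed by 0.01 (SE 0.08) on the log2 scale. The 5 transcripts at chr1:161034256-161038537 split the reads differently between libraries. The leading form, MSTRG.976.1, held 11.5% to 42.6% of the FPKM of the gene, with 32.4% ± 14.3 at 3M and 31.3% ± 10.3 at 18M (exact permutation p = 0.9, two-sided). Gas5 overlaps Zbtb37 on the other strand, where reads in shared bases cannot be told apart.

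Snhg1 had fewer reads and 2 forms in shifting proportions. Its reads were 141, 196 and 216 at 3M, 166, 183 and 211 at 6M, 199, 160 and 220 at 12M, and 208, 158 and 197 at 18M, with overlap between all ages. Its log2 difference from 3M to 18M was -0.07 (SE 0.17). The annotated form, NR_002896, of 476 bases at chr19:8723487-8726326, held from 15.3% of the FPKM of the gene in 6M-1 to 85.9% in 12M-2. The remainder was in an assembled form of 665 bases that starts further downstream. The share was 63.1% ± 10.5 at 3M and 64.4% ± 29.2 at 18M (SD, n = 3, exact permutation p = 1.0).

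Snhg12 was low and had 1 form, NR_029468, at chr4:132308678-132311024. Its reads were 116, 88 and 65 at 3M, 90, 87 and 130 at 6M, 116, 97 and 130 at 12M, and 119, 114 and 148 at 18M. The level in FPKM was 2.50 ± 0.845 at 3M and 3.25 ± 0.0785 at 18M (SD, n = 3), and the groups overlapped through 3M-1. The log2 difference was 0.37 (SE 0.24, adjusted p = 0.556 by edgeR).

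Snhg3 separated the libraries into a low and a high set that crossed the ages. Its single transcript, NR_003270, has 437 bases in 3 exons at chr4:132351933-132353686 on the minus strand. The reads were 482, 41 and 349 at 3M, 51, 46 and 67 at 6M, 65, 395 and 735 at 12M, and 466, 492 and 796 at 18M. All 6M libraries, 3M-2 and 12M-1 had 41 to 67 reads, and the other 7 libraries had 349 to 796. The log2 difference was -2.37 (SE 0.79) from 3M to 6M and 2.70 (SE 0.75) from 6M to 12M, with adjusted p of 0.991 and 0.659 by edgeR. Without 3M-2 the difference from 3M to 6M was -2.88 (SE 0.23, adjusted p = 0.0283 by edgeR), and without 12M-1 that from 6M to 12M was 3.20 (SE 0.24, adjusted p = 0.0303 by edgeR). From 3M to 18M it was 0.85 (SE 0.74), with 0.33 (SE 0.22) when 3M-2 was left out and 1.49 (SE 0.81) when 3M-1 was left out.

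All 437 exon bases of Snhg3 also lie in 4 assembled transcripts of Rcc1, the gene of the chromatin-bound exchange factor for the GTPase Ran, which run through the exons of Snhg3 and on into Rcc1 on the same strand. Of these, MSTRG.14608.2 and MSTRG.14608.4 together had 7891 to 8866 reads in the 5 libraries with low Snhg3 and 4 to 649 in the other 7. MSTRG.14608.1 and MSTRG.14608.3 together had 2693 to 3077 reads in the 5 libraries and 3862 to 6113 in the other 7. An Rcc1 transcript without exon bases of Snhg3, MSTRG.14608.7, had 901 to 1217 in the 5 libraries and 7106 to 11129 in the other 7. Reads of Snhg3 and of all Rcc1 transcripts together were 215 to 267 per 1000000 in every library, a 1.24-fold range. Snhg3 gave 41 to 796 of these 12021 to 17788 reads, so the sum cannot show where its reads went. The depth over the exon bases of Snhg3 ranged 16.6-fold when its own transcript alone was counted and 2.89-fold when all transcripts of the strand were counted. On the latter count the depth per 1000000 reads lay between 1.21 and 2.74 in the 3M mice, 1.27 and 1.36 in the 6M mice, 1.27 and 3.48 in the 12M mice, and 2.49 and 3.22 in the 18M mice. The log2 ratio of the means was -0.59 from 3M to 6M, 0.84 from 6M to 12M and 0.52 from 3M to 18M, each in the direction of the Snhg3 transcript but smaller, with exact permutation p of 0.4, 0.3 and 0.3. When all reads of the 4 Rcc1 transcripts were added instead, including those in exons of Rcc1, the log2 difference of Snhg3 became 0.70 (SE 0.32) from 3M to 6M, -0.68 (SE 0.28) from 6M to 12M and -0.57 (SE 0.33) from 3M to 18M, each in the opposite direction and none called by edgeR, at adjusted p of 0.991, 0.668 and 0.512. Which transcript the reads came from cannot be told from the deposited values.

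Snhg11 was the member with the lowest p between 3M and 18M. GENCODE lists this host gene, known mainly from neurons, as protein coding, and the table holds it as NM_175692, of 5864 bases at chr2:158375638-158386145, and an assembled form of 3743 bases. The summed reads were 669, 680 and 649 at 3M, 800, 984 and 1239 at 6M, 1245, 1083 and 1242 at 12M, and 857, 943 and 1178 at 18M. In FPKM the mean was 2.26 ± 0.0618 in the 3M mice, 3.62 ± 0.564 in the 6M mice, 3.77 ± 0.182 in the 12M mice and 3.01 ± 0.223 in the 18M mice (SD, n = 3). On this scale all 3M libraries lay below every library of the other ages, and all 18M libraries lay below those of 12M. The log2 difference was 0.66 (SE 0.13, unadjusted p = 0.00149, adjusted p = 0.642) from 3M to 6M, 0.46 (SE 0.09, unadjusted p = 0.00186, adjusted p = 0.345) from 3M to 18M and -0.30 (SE 0.08, unadjusted p = 0.0089, adjusted p = 0.9998) from 12M to 18M by edgeR. DESeq2 gave adjusted p of 4.5e-04 from 3M to 6M and 0.007 from 3M to 18M.

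The difference in Snhg11 kept its direction when any single library was left out. From 3M to 18M the edgeR difference lay between 0.40 and 0.52 when any 1 of the 6 libraries was left out, and from 3M to 6M between 0.55 and 0.78. Markers of round spermatids summed to 830 to 988 FPKM over 7 genes at 3M and 1014 to 1048 FPKM at 18M, with 6 of 7 higher and 0 of 7 called between them. The Leydig markers, whose sums are given above, had 7 of 8 lower and 0 of 8 called between 3M and 18M by edgeR. For the slope 2 of 8 were called, Cyp11a1 and Cyp17a1. At an unadjusted p of 0.05 or less by edgeR, 7 of 8 were lower at 18M than at 3M (12.0% of all genes passed). Elongating spermatid markers had 7 of 7 higher at 18M, while 5 of 5 peritubular myoid and 5 of 6 macrophage markers were lower. From 3M to 6M, 6 of 7 round spermatid, 5 of 8 Leydig, 9 of 10 Sertoli and 6 of 6 macrophage markers were higher. In the same step 7 of 8 spermatocyte, 4 of 5 peritubular myoid and 4 of 5 endothelial markers were lower. The part of these markers in the result was not tested. The annotated form held 57.2% ± 8.65 of the FPKM of Snhg11 at 3M and 64.4% ± 8.85 at 18M (SD, n = 3, exact permutation p = 0.4, two-sided).

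The snoRNAs inside the hosts had few reads of their own. GENCODE places 10 snoRNA entries inside Gas5, 8 inside Snhg1, 2 inside Snhg3, 2 inside Snhg11 and 5 inside Snhg12, and 6 named snoRNAs had a row in the table. Snord47, in Gas5, had 2 to 8 reads per library while its host had 1236 to 1755. Snord22, in Snhg1, had 5 to 15 reads while its host had 141 to 220. In Snhg12 there were 3 to 6 reads for Snord99, 2 to 4 for Snora44, 1 to 5 for Snora61 and 0 to 5 for Snora16a. RNAs of this length are shorter than most RNA-seq fragments, and no age comparison was made for them. Snord47, at chr1:161038082-161038158, and Snord99, at chr4:132310691-132310764, both on the plus strand, are shown to mark what the hosts carry. Capitals mark the TGATGA and CTGA motifs of a box C/D snoRNA, the class that guides ribose methylation.
Snord47: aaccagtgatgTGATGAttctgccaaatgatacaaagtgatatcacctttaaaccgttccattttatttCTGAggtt
Snord99: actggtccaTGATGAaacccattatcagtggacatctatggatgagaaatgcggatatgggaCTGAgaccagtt

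Starts of snoRNA hosts were also compared, since many host RNAs are known to begin with a run of pyrimidines, as ribosomal protein mRNAs do. The search was for a C within 2 bases of the annotated RefSeq start (GRCm38.p6) followed by at least 4 bases of C or T, read on the strand of the gene. It was met by a promoter of 3 of the 5 hosts, Gas5, Snhg3 and Snhg12, and by a promoter of 10.6% of all 27025 genes. Per promoter this was 3 of 6 for the hosts and 8.96% of all 32851. Among the other hosts with a promoter sequence, 3 of 12 genes met it, and among Malat1, Tug1 and Miat it was met by Miat. The starts of Gas5 (chr1:161035146-161035185), Snhg3 (chr4:132353667-132353706, minus strand), Snhg12 (chr4:132308658-132308697) and Snhg1 (chr19:8723467-8723506) are given with 20 bases before and 20 bases from the start, and capitals mark the run.
Gas5 start: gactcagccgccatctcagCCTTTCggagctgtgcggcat
Snhg3 start: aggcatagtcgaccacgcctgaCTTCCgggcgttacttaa
Snhg12 start: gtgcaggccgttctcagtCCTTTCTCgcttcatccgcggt
Snhg1 start: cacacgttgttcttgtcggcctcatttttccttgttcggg

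Other genes of the same pathways were followed as lists, and none held a call by edgeR between 3M and 18M or for the slope. The other snoRNA hosts had 0 of 13 tested called, with a median log2 difference from 3M to 18M of 0.18 (all genes: 0.01), 10 higher and 3 lower. The highest of them were Snhg6 at 8.47 FPKM (log2 difference 0.18, SE 0.17) and Snhg5 at 7.43 FPKM (-0.05, SE 0.09). Other widely studied lncRNAs had 0 of 20 called and a median of -0.04, led by 2900097C17Rik at 14.1 FPKM and Mirg at 7.94 FPKM. Paraspeckle proteins, which bind Neat1, had 0 of 26 called and a median of -0.03, led by Ewsr1 at 108 FPKM and Hnrnpk at 74.5 FPKM. Nuclear speckle proteins, which share a compartment with Malat1, had 0 of 24 called and a median of -0.03, with 7 higher and 17 lower, led by the splicing factors Srsf5 at 76.1 FPKM and Srsf2 at 55.6 FPKM.

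The lists of proteins that make or degrade these RNAs held no call either. The snoRNP core and assembly proteins had 0 of 19 called and a median log2 difference of -0.01, led by Ruvbl2 at 95.3 FPKM and Pih1d1 at 90.8 FPKM. Factors of nonsense-mediated decay, the pathway that degrades several host RNAs, had 0 of 16 called and a median of -0.07, led by Upf3a at 165 FPKM and Ncbp1 at 103 FPKM. Genes for 3′ end processing of Malat1 and Neat1, mostly RNase P subunits, had 0 of 11 called and a median of 0.04, led by Pop4 at 19.3 FPKM and Rpp30 at 17.5 FPKM. At an unadjusted p of 0.05 or less by edgeR, 12.0% of all genes passed between 3M and 18M in either direction. Of the decay factors 3 of 16 were lower at 18M and none higher. Nuclear speckle proteins had 3 lower and 1 higher of 24, and paraspeckle proteins 2 lower and 2 higher of 26. Other lncRNAs had 1 lower of 20, and 3′ end processing genes 1 higher of 11. The other snoRNA hosts and the snoRNP proteins had none.

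The protein-coding genes that overlap or flank the members gave no call either. Of 18 such neighbours 16 were tested, and edgeR called 0 between 3M and 18M and 0 for the slope, with adjusted p from 0.354 to 0.992 between 3M and 18M. Frmd8, 4224 bases from Neat1, had a log2 difference of -0.14 (SE 0.06). Rcc1 had 0.04 (SE 0.05), with a mean level of 68.3 FPKM. The largest was that of Lbp, 42786 bases from Snhg11, at -0.75 (SE 0.19), in the direction opposite to Snhg11.

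Finally, the gene with the most similar profile over the 12 libraries was sought for each member among 10719 genes with a mean of 10 CPM or more, as a description only, since all points share the same 12 libraries and ages. Pearson's r on log2(CPM + 1) was 0.87 for Malat1 with Ccdc184, 0.92 for Neat1 with Senp3, 0.89 for Tug1 with Ttc14 and 0.84 for Miat with Pcdhgc5. Snhg3 was most like Cox4i1, with 0.93, and Snhg11 was most like Gripap1, with 0.90. For Gas5 the most similar feature was an assembled antisense locus, with 0.88. For Snhg1 and Snhg12 the most similar were assembled intergenic loci, with 0.85 and 0.91.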

How the data were processed

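The authors aligned paired-end reads of ribosomal RNA-depleted total RNA with HISAT2 to mm10 and assembled and quantified transcripts with StringTie 1.3.3b, which gave the deposited estimated counts and FPKM of 71967 transcripts. Estimated counts are coverage times length over read length, so a read in shared exons is divided between transcripts by the model, and FPKM was not normalized between libraries. Here counts, already whole, were summed by symbol and tested with edgeR 4.0.16 (TMM, filterByExpr, quasi-likelihood test) across all genes, with Benjamini-Hochberg adjustment and no fold minimum. The fits were tested on simulated data. Shares of transcripts were compared by two-sided exact permutation tests. P-values measure only the spread between 3 mice per age. DESeq2 1.42.0, limma 3.58.1 on log2(FPKM + 1) and log2(FPKM + 0.1), other normalizations and filters, a replicate block and leaving out libraries were alternatives. Tables: GENCODE vM21 and RefSeq.

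The members and gene lists were chosen with earlier results of these data known. Named were all members, member transcripts with 10% or more of the FPKM of their gene (up to 4 a gene), for each list without calls the 2 genes with the highest mean FPKM, flanking protein-coding genes and the gene most like each member. Other transcripts and genes were named after their values were seen. The smallest exact p with 3 against 3 is 0.1.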

Additional observations from a re-analysis of the deposited data

How the results depend on the processing

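No member was called by edgeR in any of the 5 gene comparisons or the 2 transcript comparisons with TMM, library size only, DESeq2 size factors, no filter, or all 12 libraries in 1 fit. DESeq2 called 1 member between 3M and 18M, 1 between 3M and 6M, 1 member transcript between 3M and 18M and 1 for the transcript slope. At an unadjusted p of 0.05 or less there were 1 between 3M and 18M, 2 between 3M and 6M, 2 between 6M and 12M, 1 between 12M and 18M, and 2 transcripts in each transcript comparison. Leaving out a library gave 0 to 1 member calls between 3M and 6M and between 6M and 12M (Snhg3, without 3M-2 and without 12M-1) and 0 to 0 elsewhere. With all class codes, the share of NR_033657 in Miat was -1.30 percentage points at 18M against 3M, since the antisense transcript entered the sum. Over 153 refits of member differences between 3M and 18M, 144 kept their direction. The other 9, none of them called, were Malat1 without 3M-3, 18M-2 or 18M-3, Snhg1 without 3M-3 or 18M-3, Miat and Gas5 without 3M-2, Neat1 without 18M-3, and Snhg3 with shared exons. Counts over all genes were higher by DESeq2 than by edgeR: 290 against 16 between 3M and 18M, 550 against 43 for the slope, 88 against 17 between 3M and 6M, 137 against 10 between 6M and 12M, and 56 against 4 between 12M and 18M, and for transcripts 1719 against 59 and 823 against 5. Leaving out a library gave 18 to 35 genes between 3M and 18M and 13 to 114 for the slope, and leaving out the 3 libraries of high Malat1 gave 43 and 29, and 28, 24 and 15 for the 3 steps between ages. All 12 libraries in 1 fit gave 25 genes between 3M and 18M, 6 between 3M and 6M and 1 between 12M and 18M, and 18 transcripts between 3M and 18M, where no filter gave 22 (slope: 3). With limma, 7 or 10 genes were called between 12M and 18M and, at the pseudocount of 0.1, 22 between 6M and 12M.

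Mouse numbers recur at each age, but same-numbered mice did not deviate together, with r from -0.05 to 0.10 over 12 pairs and 0 over 0.1. With a replicate block, 0 members were called in each comparison, and calls over all genes between 3M and 18M fell from 16 to 0, with 22 for the slope, 2 between 3M and 6M and 2 between 6M and 12M, and for transcripts 0 and 3. The fits added after seeing the data were those with shared exons or without the 3 libraries of high Malat1, and called 0 members. Depth limits Miat and Snhg12, with as few as 67 and 65 reads in a library. Snhg3 had as few as 41 reads, in 3M-2. There the depth over its exon bases was 9.34 from its own transcript and 68.3 from all transcripts of the strand.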
